A study of Homo sapiens with 12 samples.

Results

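PEG3, ZIM2, ZNF331 and PLAGL1 are imprinted human genes, and their H3K9me3 peaks were compared between SMARCA3 knockout (KO) and wild-type (WT) 293T cells. All peaks that the authors had assigned to these 4 gene names were taken from both of their peak lists. That gave 48 of the 65170 peaks in the KO list and 13 of the 46898 in the WT list. The series holds 12 libraries, with 3 H3K9me3 ChIP and 3 input libraries from SMARCA3_KO 293T cells and as many of each from WT 293T cells. 293T is an established line of embryonic kidney origin that expresses the large T antigen of SV40. SMARCA3, now named HLTF, encodes a DNA translocase with a ubiquitin ligase domain. Whether the KO cells are a single clone is not given in the sources used here.

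In an imprinted gene the copy from one parent is silenced, usually by DNA methylation set in the germ line at a control region near a start site. The methylated copy of such a region is known to be bound by ZFP57 or ZNF445, zinc finger proteins that recruit KAP1 and the H3K9 methyltransferase SETDB1. Zinc finger genes, to which all 4 genes belong, can also carry H3K9me3 over the exons that encode the finger array near their 3′ ends. The reads behind these peaks were not split by parental copy. PEG3 encodes a large zinc finger protein and is expressed from the paternal copy. ZIM2 is a zinc finger gene that shares its first exons with PEG3. ZNF331 encodes a KRAB zinc finger protein. PLAGL1, also called ZAC, encodes a zinc finger transcription factor and lies at the locus of transient neonatal diabetes.

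Each list is 1 file per genotype with no column per library. No difference between KO and WT below therefore has a replicate check or a test, and the read depth behind a peak is unknown. For every peak the authors gave a fold enrichment, a ratio whose definition the files do not state, and a q-value. Intervals are Wilson 95% intervals that cover the counting of peaks only. Positions are in hg38. Of all peaks in the pooled lists 58.2% were KO peaks, and this share was 67.6% on chromosome 19 and 58.6% on chromosome 6.

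The 3 genes of chromosome 19 carried many KO peaks and few WT peaks, while PLAGL1 on chromosome 6 was marked in both genotypes. PEG3 had 7 KO peaks and 1 WT peak, ZIM2 had 17 and 1, ZNF331 had 9 and 2, and PLAGL1 had 15 KO and 9 WT peaks. In peak bases, PEG3 had 3328 in KO and 306 in WT, and ZIM2 had 8723 in KO and 324 in WT. ZNF331 had 6455 bases in KO and 2091 in WT, and PLAGL1 had 12270 in KO and 9241 in WT. The order of the ratios was thus ZIM2 (26.9), PEG3 (10.9), ZNF331 (3.09) and PLAGL1 (1.33). All 4 genes had a peak in each list, where 23.5% of protein-coding genes had a KO peak and 20.7% had a WT peak. The 4 genes were chosen with earlier results of these data known, so their having peaks says nothing about imprinted genes. At 3 of the 4 the KO bases were at least 2 times the WT bases. The same held for 35.3% of the protein-coding genes with a peak in either list, for 57.7% of those on chromosome 19 and for 33.5% of those on chromosome 6. The share on chromosome 19 was thus above the genome's.

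KO peaks made up 94.4% (74.2 to 99.0) of the peaks at ZIM2, an interval that lay above the 67.6% of chromosome 19. Under another unit or threshold the ZIM2 interval was wider, and the chromosome's share was not recomputed to match. With ZIM2 peaks within 1 kb of each other merged, 6 KO peaks and 1 WT peak gave 85.7% (48.7 to 97.4), and in lists of equal length by q-value 9 and 1 gave 90.0% (59.6 to 98.2). Both intervals include the 67.6% of the full lists, as did those at the 2 higher fold thresholds, which begin at 64.6% and 56.6%. In lists of equal length by fold, 14 and 1 gave 93.3% (70.2 to 98.8), an interval above 67.6%. Without a matching chromosome value, these settings do not place ZIM2 against its chromosome. By position over the gene in the full lists, 31 and 3 gave 91.2% (77.0 to 97.0), above 67.6%, with peaks assigned to other genes included. PEG3, at 87.5% (52.9 to 97.8), and ZNF331, at 81.8% (52.3 to 94.9), had intervals that include the chromosome's value as counted. PLAGL1 stood at 62.5% (42.7 to 78.8), close to the 58.6% of chromosome 6. Part of each excess lay in weak peaks. When only peaks with a fold of at least 3.69, the median over the pooled lists, were counted, ZIM2 had 7 KO and 0 WT peaks and ZNF331 had 4 and 2, but PEG3 had 0 KO peaks and 1 WT peak and PLAGL1 had 5 and 7.

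**Figure D1:**
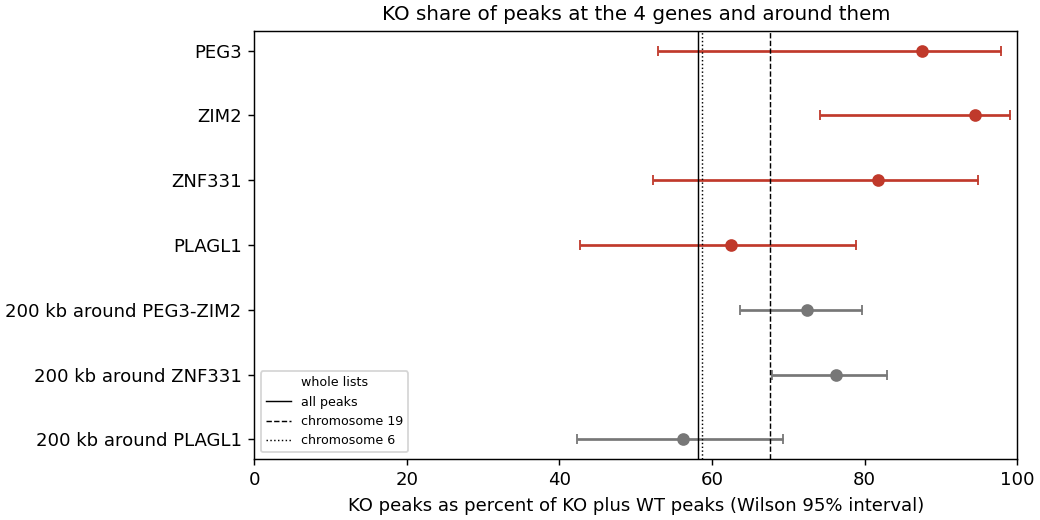
KO peaks as a percentage of KO plus WT peaks, at each of the 4 genes (red) and within 200 kb of them (grey), with Wilson 95% intervals as bars and the shares of the whole lists as vertical lines. ZIM2 lies highest at 94.4%, with an interval that begins at 74.2%, above the chromosome 19 line at 67.6%. Neighbouring peaks are counted singly in all of these shares.

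By gain of peak bases among the 5036 protein-coding genes with a peak in either list, ZIM2 ranked 119, ZNF331 ranked 372, PLAGL1 ranked 608 and PEG3 ranked 610. Within chromosome 19 the ranks of 343 genes were 44 for ZIM2, 118 for ZNF331 and 159 for PEG3. Among genes with peaks in both lists, the median ratio of KO to WT bases was 1.39 over the genome, 2.00 on chromosome 19 and 1.46 on chromosome 6. PLAGL1, at 1.33, was thus the only one of the 4 below the median of its own chromosome.

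PEG3 and ZIM2 are transcribed from the minus strand and share a start in the RefSeq gene table. PEG3 (ENSG00000198300) spans chr19:56810082-56840726 and ZIM2 (ENSG00000269699) spans chr19:56774547-56840726, so the authors' gene column splits 1 run of peaks between both names. Taken by position, 31 KO peaks with 15404 bases and 3 WT peaks with 1241 bases lay over the joint locus. Of these, 24 KO and 2 WT peaks were assigned to PEG3 or ZIM2, and 6 KO peaks and 1 WT peak to ZIM2-AS1, a noncoding gene on the opposite strand. The remaining KO peak was assigned to the noncoding AC006115.2. Peaks covered 23.3% of the locus in KO and 1.88% in WT, and over PEG3 alone 17.4% in KO and 0.999% in WT. The KO list therefore held a series of separate peaks over the locus, not 1 broad peak. The peak caller and depth are unknown, so the form of the signal itself is not shown.

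The assigned KO peaks fell into 3 groups, with gaps of more than 5 kb between them. The group nearest the start held 6 peaks at chr19:56834477-56840316, with folds from 2.45 to 3.82, and no WT peak. The middle group held 14 KO peaks at chr19:56801233-56826460, where both assigned WT peaks also lay. It included the strongest KO peak of the pair of genes, of 1151 bp and fold 4.82 at chr19:56801233-56802383. The distal group held 4 KO peaks at chr19:56778774-56782288 and no WT peak. The strongest stretch lay in ZIM2 just past the 3′ end of PEG3, where 9 kb held 8 KO peaks of 5225 bases and 1 WT peak of 324 bases.

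Both WT peaks had a KO counterpart that was wider. In PEG3 the KO peak at chr19:56825851-56826460 was 610 bp wide with a fold of 3.65, against 306 bp and a fold of 3.91 for the WT peak inside it. In ZIM2 the KO peak at chr19:56806248-56807192 was 945 bp wide with a fold of 4.51, against 324 bp and a fold of 3.38 in WT. The other 6 KO peaks of PEG3 and 16 of ZIM2 met no WT peak. At ZIM2, 4 of the KO peaks had the same fold of 3.36 and the same q-value of 2.1e-06, so their folds carry little on how they differ.

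The start shared by PEG3 and ZIM2 was itself under no peak in either list. The imprinting control region of the domain is known to lie around this start, over a stretch not defined here. Whether KO peaks of the group nearest the start lie inside that region was therefore not examined. The nearest KO peak began 410 bp into the genes, and the next one upstream was 13058 bp away. In WT the nearest peak was 14434 bp into the genes and the next one upstream was 113777 bp away. The KO peak next to the start was 459 bp wide with a fold of 3.18 and a q-value of 5.7e-08. Both values were below the KO list's medians of 530 bp and 3.59.

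**Figure D2:**
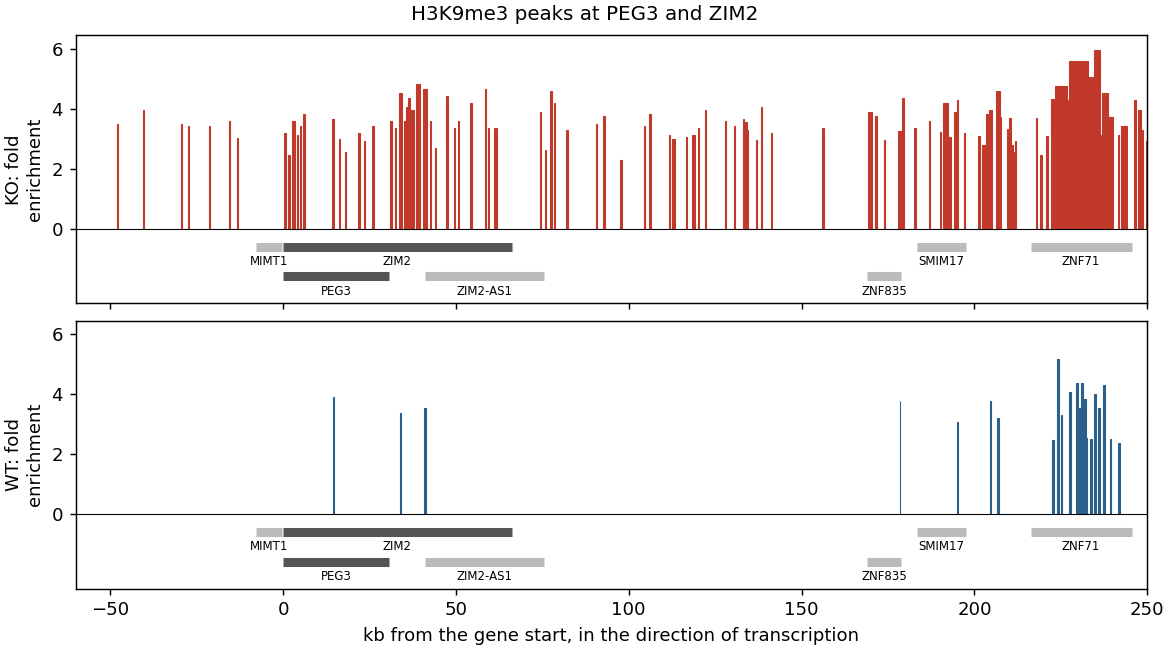
H3K9me3 peaks along the PEG3 and ZIM2 locus and its downstream flank in KO (upper panel) and WT (lower panel), with the distance from the shared start in kb on the x axis, the authors' fold enrichment as bar height and peak width as bar width. Dark bars are PEG3 and ZIM2 and light bars are other genes. The locus holds 31 KO and 3 WT peaks, and the dense KO block at the right edge is ZNF71.

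ZNF331 (ENSG00000130844) spans chr19:53503235-53580269 on the plus strand and has several start sites. Its 9 KO peaks formed a group inside the upstream part of the gene and another at the 3′ end. The group of 7 KO peaks at chr19:53518916-53527160 had 3883 bases and surrounded the RefSeq start site at 53521014. That site was 505 bp from the nearest KO peak and 4598 bp from the nearest WT peak. The only WT peak in this stretch, of 771 bp and fold 4.01 at chr19:53525612-53526382, met a KO peak of 789 bp and fold 4.60. The other 6 KO peaks there were KO alone, and 5 of them were in a promoter class.

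At the 3′ end, where the finger exons of KRAB zinc finger genes lie, both genotypes were marked. The KO peak at chr19:53576110-53578400 was 2291 bp wide with a fold of 3.72, and the WT peak at chr19:53576528-53577847 was 1320 bp wide with a fold of 3.93. KO added a peak of 281 bp and fold 3.56 beside it. By the authors' classes, the WT peaks of ZNF331 were thus in the gene body alone, and 5 KO peaks were in a promoter class. Those 5 lay around a RefSeq start site inside the gene, not at the start of the gene's span. Upstream of that span the nearest peak was 1394 bp away in KO and 1468 bp away in WT, neither assigned to ZNF331. The start of the span thus had a peak at a similar distance upstream in both lists.

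The stretch between these groups had no peak over 48949 bp in the KO list and over 50145 bp in the WT list. It included the other 5 ZNF331 start sites of the RefSeq promoter table, at 53537307, 53554613, 53554827, 53555240 and 53555307. Their nearest KO peaks were 10147 to 21497 bp away and their nearest WT peaks 10925 to 21915 bp away. Imprinted methylation of ZNF331 is known from CpG-rich regions inside the gene, so a start between KO peaks and a start far from any peak are shown side by side. The 250 bases before each start are printed from RefSeq (GRCh38.p14, plus strand, 5′ to 3′), with no capitals because neither held a match to the motifs named below. The first, chr19:53520764-53521013, lies before the start flanked by KO peaks and has 14 CG dinucleotides and 55.6% G and C. The second, chr19:53554363-53554612, lies in the stretch without peaks and has 29 CG dinucleotides and 68.4% G and C.
ZNF331 start flanked by KO peaks: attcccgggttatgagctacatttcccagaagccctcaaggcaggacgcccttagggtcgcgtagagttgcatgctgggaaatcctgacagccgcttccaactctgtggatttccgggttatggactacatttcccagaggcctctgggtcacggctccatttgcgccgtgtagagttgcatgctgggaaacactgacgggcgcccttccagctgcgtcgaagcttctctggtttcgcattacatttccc
ZNF331 start in the stretch without peaks: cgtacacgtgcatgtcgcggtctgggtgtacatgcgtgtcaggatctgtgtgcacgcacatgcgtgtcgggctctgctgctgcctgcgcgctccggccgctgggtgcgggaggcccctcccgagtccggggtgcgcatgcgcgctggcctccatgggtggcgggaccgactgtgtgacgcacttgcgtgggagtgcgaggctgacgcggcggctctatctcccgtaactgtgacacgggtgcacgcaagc

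**Figure D3:**
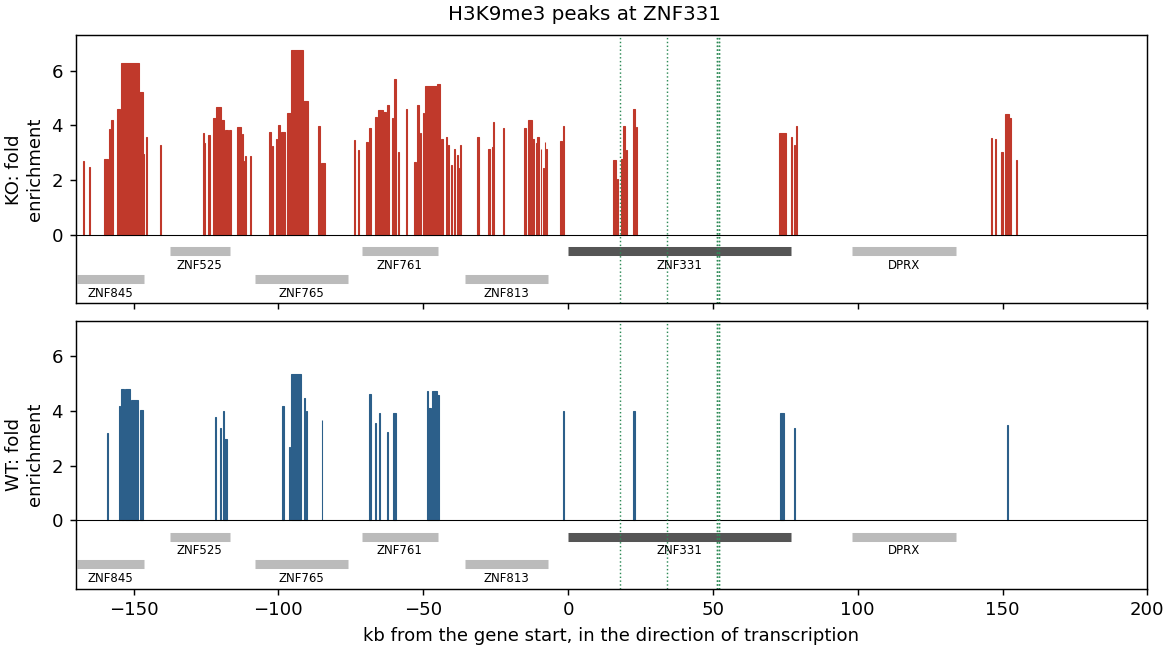
H3K9me3 peaks at ZNF331 and its flanks in KO (upper panel) and WT (lower panel), with the distance from the gene start in kb on the x axis, the authors' fold enrichment as bar height and peak width as bar width; dotted lines mark RefSeq start sites. ZNF331 has 9 KO and 2 WT peaks, all away from the later start sites, and the zinc finger genes to its left carry most peaks in both lists.

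PLAGL1 (ENSG00000118495) spans chr6:143940300-144064599 on the minus strand. All of its 15 KO and 9 WT peaks were in the gene body, with none in a promoter class in either list. Peaks covered 9.87% of the gene in KO and 7.43% in WT. Most of the mark lay in 1 block that both genotypes shared. It held 8 KO peaks with 7097 bases at chr6:143992230-144003708 and 5 WT peaks with 7556 bases at chr6:143992169-144003354. In this block the WT list thus had fewer peaks but slightly more bases.

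The widest WT peak of the 4 genes, 3981 bp with a fold of 6.53 at chr6:143999374-144003354, faced 3 KO peaks with 3918 bases together. The strongest of them, 1690 bp with a fold of 7.22 at chr6:144000951-144002640, ranked at percentile 99.1 of all folds in the KO list, and the WT peak at percentile 98.6 of the WT list. The second strong pair was a KO peak of 1700 bp and fold 4.86 at chr6:143993602-143995301, against a WT peak of 1828 bp and fold 6.32. The same domain was thus covered in both genotypes, in KO by several peaks and in WT by fewer.

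Outside the block the KO list had a wide peak that the WT list lacked, 2402 bp with a fold of 3.16 at chr6:144047466-144049867. It was the widest KO peak of the 4 genes and stood at percentile 22.3 of the KO folds. WT had 2 peaks that met no KO peak. The one outside the block was of 405 bp and fold 3.28 at chr6:144013739-144014143. The other, of 288 bp and fold 3.77 at chr6:143997089-143997376, lay inside the block. These were the only WT peaks of the 4 genes with no KO counterpart.

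The imprinted start of PLAGL1 at 144008259, which HYMAI, a paternally expressed noncoding RNA, also uses, was not under a peak. The nearest KO peak was 4551 bp away and the nearest WT peak 4905 bp away, both belonging to the shared block downstream of it. HYMAI had no peak in either list, and none of the 5 PLAGL1 start sites in the RefSeq promoter table was under a peak. The 250 bases before the imprinted start, chr6:144008260-144008509, are shown because they hold the hexamer that ZFP57 is known to recognise when its CG is methylated. They are printed from RefSeq (GRCh38.p14, minus strand, 5′ to 3′), with the hexamer TGCCGC and its reverse complement in capitals.
PLAGL1 imprinted start: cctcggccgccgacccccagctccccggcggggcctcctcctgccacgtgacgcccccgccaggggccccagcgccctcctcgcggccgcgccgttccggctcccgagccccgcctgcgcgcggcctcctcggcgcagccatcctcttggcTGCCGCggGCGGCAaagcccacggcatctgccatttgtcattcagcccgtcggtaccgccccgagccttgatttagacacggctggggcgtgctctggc

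The hexamer TGCCGC was searched on both strands, and this window held 2 matches, 1 on each strand, beside 32 CG dinucleotides and 75.6% G and C. Of 34943 RefSeq promoter windows of 250 bases, 12.7% held the hexamer and 1.69% held it at least 2 times. No other PLAGL1 or ZNF331 window held it. The YY1 core CCATNTT, also searched on both strands and found in 11.6% of windows, was present once in the PLAGL1 window before 143965478 and 2 times in that before 143961412. Promoter windows of PEG3 and ZIM2 were not analysed here. A match describes letters only.

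**Figure D4:**
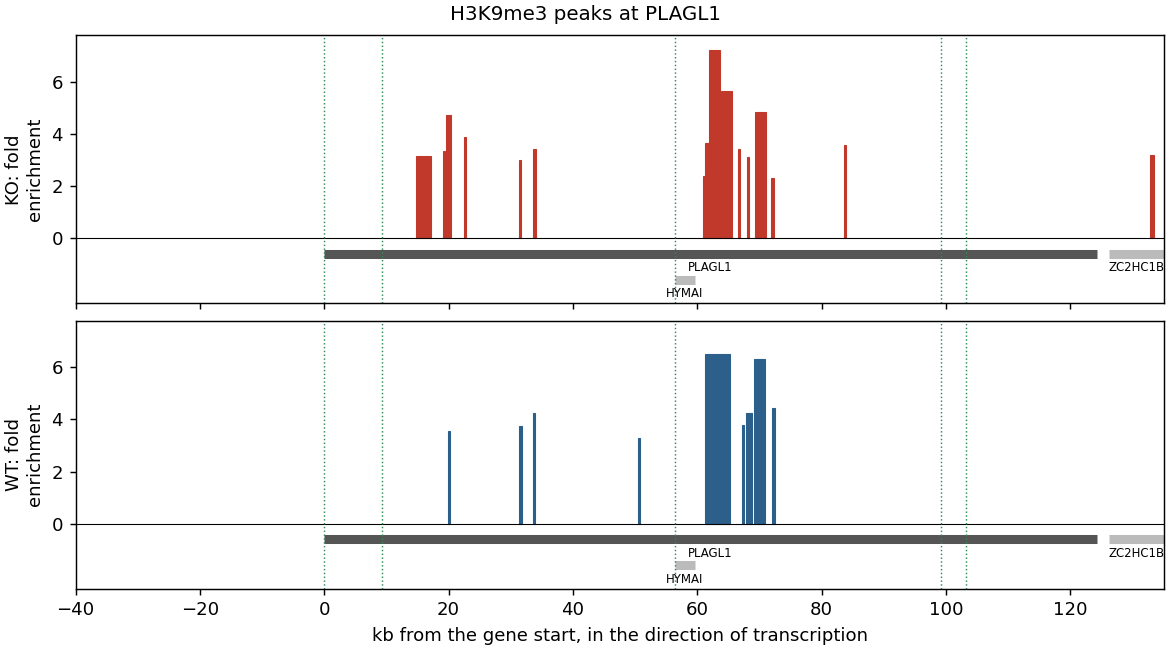
H3K9me3 peaks at PLAGL1 in KO (upper panel) and WT (lower panel), with the distance from the gene start in kb on the x axis, the authors' fold enrichment as bar height and peak width as bar width; dotted lines mark RefSeq start sites. The main block, with folds up to 7.22 in KO and 6.53 in WT, lies past the start shared with HYMAI, and no start site is under a peak.

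The position of the peaks differed between the genes. By the authors' classes, in which a promoter peak lies within 3 kb of the start of a transcript, 18 of the 48 KO peaks (37.5%) and 1 of the 13 WT peaks (7.69%) were promoter peaks. Over both whole lists, 18.8% of KO and 15.9% of WT peaks with an assigned gene were in a promoter class. PEG3 had 4 KO promoter peaks and 1 WT promoter peak, ZIM2 had 9 and 0, ZNF331 had 5 and 0, and PLAGL1 had 0 in both. All the promoter peaks were thus on chromosome 19. Without PLAGL1, they made up 18 of 33 KO peaks (54.5%) and 1 of 4 WT peaks (25%), so the low pooled WT share rests largely on PLAGL1. At ZIM2, 2 of the 9 were within 250 bp of a transcript start and 2 more within 1 kb. These classes rest on the many transcripts the authors used. Within 1 kb of a gene's own start in the RefSeq table there was 1 KO peak, assigned to PEG3, at the start that PEG3 and ZIM2 share, and none at ZNF331 or PLAGL1.

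Within the KO list, promoter and body peaks did not differ in the same way at the 3 genes of chromosome 19. At ZIM2 the 8 body peaks had a median width of 594 bp and a median fold of 4.01, and the 9 promoter peaks had 350 bp and 3.36. At PEG3 the promoter peaks had the higher medians, 510 bp and 3.39 against 469 bp and 3.20 in the body. ZNF331 had similar median widths, 565 bp in the promoter classes and 542 bp in the body, and folds of 2.78 and 3.84. The lowest fold of all 48, 2.04, belonged to a ZNF331 promoter peak of 283 bp.

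KO peaks without a WT counterpart had a lower median width and fold than those with one, with overlapping ranges. Of the 48 KO peaks, 13 met a WT peak by at least 1 bp, and these had a median width of 789 bp and a median fold of 3.72. The other 35 had medians of 384 bp and 3.36, but reached 2402 bp and a fold of 4.82. In the KO list as a whole 50.6% of peaks met a WT peak, and in the WT list 79.9% met a KO peak. By gene, 1 of 7 KO peaks met a WT peak at PEG3, 1 of 17 at ZIM2, 2 of 9 at ZNF331 and 9 of 15 at PLAGL1. Of the 13 WT peaks, 11 met a KO peak, including all 4 on chromosome 19.

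Where both lists had a peak, KO peaks were not uniformly stronger. In the 11 such places the strongest KO peak had the higher fold in 4 and the lower fold in 7, and it was the wider one in 7. PLAGL1 accounted for 7 of the places, with a higher KO fold in 2. Over all WT peaks that met a KO peak, the KO fold was the higher in 58.8%. Peaks wider than 1 kb numbered 7 in KO and 4 in WT, and 4 of the KO and 3 of the WT ones were in PLAGL1.

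**Figure D5:**
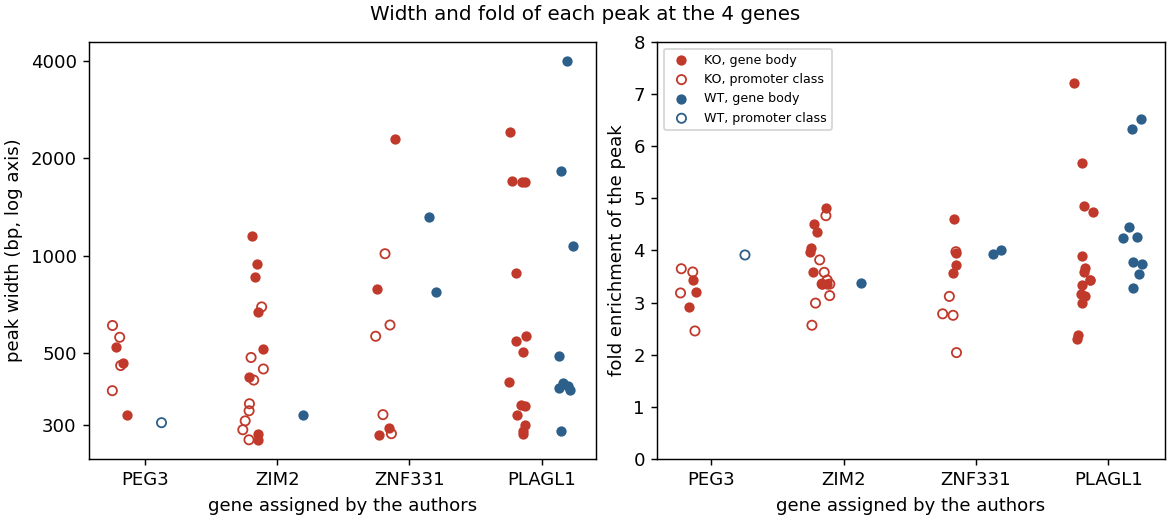
Width in bp (left, log axis) and fold enrichment (right) of every peak assigned to the 4 genes, with KO in red left of WT in blue, gene-body peaks filled and promoter-class peaks open. KO folds run from 2.04 to 7.22 and WT folds from 3.28 to 6.53, and the widest peak, 3981 bp, is a WT peak of PLAGL1.

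The surroundings were compared next, as peaks within 200 kb of each locus but not on it. Counts for a named neighbour below cover all peaks of that name, also those beyond 200 kb. Around PEG3 and ZIM2 there were 84 KO peaks with 66470 bases and 32 WT peaks with 18707 bases, and KO peaks made up 72.4% (63.7 to 79.7). Around ZNF331 there were 93 KO peaks with 69288 bases and 29 WT peaks with 22489 bases, a share of 76.2% (67.9 to 82.9). PLAGL1 had 27 KO peaks with 23553 bases and 21 WT peaks with 13253 bases around it, a share of 56.2% (42.3 to 69.3). At each locus the interval of the gene overlapped that of its flank, which does not show that gene and flank were alike. The shares of ZIM2 (94.4%) and PEG3 (87.5%) lay above the interval of their 200 kb flank. Those of ZNF331 (81.8%) and PLAGL1 (62.5%) lay inside theirs. Within 100 kb of PEG3 and ZIM2, however, the flank's share was 100% (90.1 to 100), above the shares of both genes. A difference between gene and flank was not tested.

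The flank of PEG3 and ZIM2 was lopsided. Upstream there were 11 KO peaks and 1 WT peak, and downstream, toward zinc finger genes, 73 and 31. Within 100 kb on both sides there were 35 KO peaks and 0 WT peaks. Farther downstream, ZNF71 had 15 KO and 13 WT peaks (19241 and 6360 bases) and ZNF470 had 7 KO and 14 WT peaks (18907 and 11654 bases). At ZNF470, 1 KO peak of 11706 bp and fold 6.80 at chr19:56572576-56584281 covered a place where the widest WT peak was 3127 bp with a fold of 5.35. By assigned name, and so with any peaks of the gene over the locus itself included, the noncoding AC006115.3 had 14 KO peaks and no WT peak, ZIM2-AS1 had 9 and 1 (6 and 1 of them over the locus), ZNF835 had 5 and 1, and SMIM17 had 7 and 1. All 12 neighbours with a peak had more bases in KO, and 5 had KO peaks alone, among them AC006115.2, whose only peak lay over the locus. On chromosome 19 as a whole, 93.2% of gene names with a peak had more KO bases and 33.7% had KO peaks alone, so the neighbours did not stand out in the direction of the difference. USP29 and MIMT1, imprinted genes upstream of the shared start, had no peak in either list. USP29 lies beyond the 200 kb compared here.

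ZNF331 sits at the edge of a zinc finger cluster, and its neighbours' peaks lay almost all on that side. Upstream there were 85 KO and 27 WT peaks, and downstream 8 and 2. ZNF765 had 14 KO and 4 WT peaks (13729 and 5008 bases), ZNF761 had 15 and 8, ZNF845 had 12 and 6, and ZNF525 had 6 and 4. ZNF813, the zinc finger gene next to ZNF331, had 9 KO peaks with 4888 bases and no WT peak, and the small RNA pseudogene RNU6-698P had 3 and 0. All 13 neighbours with a peak had more KO bases, and 6 had KO peaks alone, beside the same 93.2% and 33.7% of the chromosome. Downstream lies the primate microRNA cluster C19MC, which is imprinted in placenta. None of the 43 microRNA hairpins between 53666679 and 53762430 was under a peak in either list, and the homeobox gene DPRX had none. All downstream peaks within 200 kb held only 4217 bases in KO and 728 in WT. The share of all microRNA hairpins under a peak was not computed, so these counts do not set the cluster apart.

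Around PLAGL1 the neighbours were marked in both genotypes. ZC2HC1B, downstream, had 11 KO and 8 WT peaks (10986 and 4159 bases), and PHACTR2, which encodes a phosphatase and actin regulator, had 13 and 7 (12510 and 6709 bases). Part of these peaks lay beyond 200 kb, as the downstream flank held 14 KO and 9 WT peaks in all. The pseudogene TPT1P4 had 3 peaks in each list, and STX11, a syntaxin gene, had 2 KO peaks and no WT peak. LTV1 and SF3B5 had none in either. On the upstream side the first peak was 108423 bp away in KO and 133531 bp in WT, and no peak lay closer on that side in either list.

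Other imprinted genes had peaks about as often as genes in general. By assigned name, 12 of 40 others had a KO peak (30.0%) and 8 had a WT peak (20.0%), beside 23.5% and 20.7% of all protein-coding genes, though the 40 include noncoding genes. An assigned peak in the KO list only was found at 4 of them and in the WT list only at 0, where 23.7% and 6.08% of all gene names with a peak were of these kinds. The other 28, among them H19, IGF2, DLK1 and SNRPN, had no assigned peak. By position, 1 of the 28, GNAS, lay under 0 KO peaks and 1 WT peak. More KO than WT bases were found at 11 of the 12, where the share over all gene names with a peak was 79.0%, and fewer at GRB10, with 582 in KO and 1221 in WT. By size of difference, KCNQ1OT1, the antisense RNA of the KCNQ1 domain, had 30 KO and 29 WT peaks (32793 and 25228 bases), and the assignment of peaks between it and the overlapping KCNQ1 is uncertain. MEG3, a maternally expressed noncoding RNA, had 2 peaks in each list with 4462 bases in KO and 1174 in WT. By position, 1 KO peak and 0 WT peaks lay over MEG3. COPG2 had 9 and 5 peaks, SGCE had 5 and 3, and RB1 had 8 and 9. By position no peak of either list lay over SGCE. PEG10, a gene derived from a retrotransposon, had 1 and 0, though 2 peaks of each list lay over it by position. KO promoter peaks were found at COPG2, SGCE, PEG10, MEST and MKRN3, and WT promoter peaks at COPG2 and SGCE. KO bases reached at least 2 times the WT bases at 6 of the 12, counting the 4 with no WT peak. By the same rule the share was 35.3% of the protein-coding genes with a peak in either list, though the 12 include noncoding genes. No such share is given here for genes with a promoter peak.

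Among 15 genes of imprint maintenance, which include ZFP57, ZNF445, TRIM28 (KAP1), DNMT1 and UHRF1, SETDB1 had 3 KO peaks of 1053 bases and no WT peak, and the other 14 had none. That is 6.67% of the list with a KO peak and 0.00% with a WT peak, beside 23.5% and 20.7% of protein-coding genes.

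The genes most like each of the 4 were sought among 5035 protein-coding genes by distance in log2 of peak bases plus 1000, over the 2 lists. ZIM2 was nearest to the zinc finger genes ZNF730 (18 KO peaks and 1 WT peak, distance 0.087), ZNF679 (0.194) and ZNF728 (0.326). PEG3 was nearest to TMTC2 (0.044), its own neighbour ZNF835 (0.090) and ZNF232 (0.091). ZNF331 was nearest to SGIP1 (0.048), ZFP14 (0.071) and PCLO (0.079), and PLAGL1 to ZNF776 (0.062), ZFP3 (0.064) and FCHSD2 (0.072). Of these 12 nearest genes, TMTC2, SGIP1, PCLO and FCHSD2 are not zinc finger genes.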

How the data were processed

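H3K9me3 ChIP-seq of SMARCA3 KO and WT 293T cells was analysed from the 2 peak lists that the authors deposited, 1 per genotype. HISAT2 and hg38 are named per the submitters' processing notes; no peak caller, threshold, pooling of replicates or use of the input libraries is given in the sources used here. Per the file headers, the deposited lists give each peak a fold enrichment, read here as a ratio, a q-value (at most 4.3e-03 in KO and 6.4e-03 in WT) and a gene. Depth per library is unknown.

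Peaks were taken by the authors' gene name. Positions were read as counted from 1. Peaks of the lists were called overlapping from 1 bp. RefSeq (GRCh38.p14) gave gene spans, start sites and 250-base windows. Groups of peaks were split at gaps over 5 kb. KO peaks were expressed as a share of KO plus WT peaks with Wilson 95% intervals, and no test between genotypes was possible. Python 3.11.15 with pandas 2.3.3 and scipy 1.17.1 was used, and the counting was tested on simulated peaks. The alternatives were another threshold, list length, gene assignment, unit, flank, overlap and promoter definition. Named besides the 4 genes were up to 6 neighbours per locus and 6 other imprinted genes by difference in peak bases, genes of that list with a promoter peak, and the 3 genes most like each. Further genes named as having no peak, and the imprint maintenance genes listed, were chosen after their values were seen. The 4 genes and the lists were chosen with earlier results of these data known.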

Additional observations from a re-analysis of the deposited data

How the results depend on the processing

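Of 54 values recomputed under an alternative, 38 kept their direction within their interval, 11 moved beyond it and 5 turned round; the cause was not tested. At or above the pooled median fold, the KO share of peaks was 0.00% at PEG3 (1 peak left), 41.7% at PLAGL1, 38.5% around PLAGL1 and 100% at ZIM2. From fold 4 it was 44.4% at PLAGL1, 50.0% at ZNF331 and 100% at ZIM2, and PEG3 gave no value because no peak was left. With both lists at 46898 peaks by q-value it was 44.7% around PLAGL1 and 63.6% around PEG3 and ZIM2. Around PEG3 and ZIM2 it was 100% within 100 kb and 62.4% within 500 kb. With an overlap of 50% of both peaks, the share of KO peaks that met a WT peak was 0.00% at ZIM2 and 26.7% at PLAGL1. Within 1 kb of the RefSeq gene start, promoter peaks were 14.3% of the KO peaks assigned to PEG3, 0.00% of those assigned to ZIM2, which shares that start, and 0.00% at ZNF331. Gene assignment by position, merging of peaks and counting bases turned no share at the genes round, and lists of equal length by q-value or fold left the shares at the 4 genes above 50.0%; the difference in bases at PLAGL1, KO minus WT, was -913 in lists of equal length by fold.

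No paired analysis was possible because the lists hold no column per library, and leaving out single replicates was not run for the same reason. With 1 to 9 WT peaks per gene, 1 peak more or less moves a share, and a missing peak need not be an unmarked place.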
